A study of Mus musculus with 8 samples.

Results

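The unfolded protein response and the integrated stress response were followed through 42 genes, chosen by name, of the 18193 genes that the array annotation names by at least 1 probe set with a single symbol. All 42 were measured, by 103 probe sets, of which 94 entered the tests and 9 were too dim. Each gene had at least 1 tested probe set, and the brightest stands for the gene below. In 27 genes with several tested probe sets, 16 had differences of both signs between them. The genes were read in 4 arms: 17 genes of the Atf4 arm, 15 chaperones and folding enzymes of the endoplasmic reticulum, 6 sensors and regulators, and 4 genes of endoplasmic reticulum-associated degradation.

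The cells were subcutaneous preadipocytes, precursors from which fat cells arise, of day 2 newborns on a C57BL/6 background, and every sample carried Dicer lox/lox alleles. The 4 knockout samples received Ad5CMVCre-eGFP, an adenovirus with Cre recombinase and GFP, and the 4 control samples received Ad5CMVeGFP, with GFP alone, both at 750 MOI with 4 μg/mL polybrene. RNA was taken 4 days later and put on Affymetrix arrays, 1 per sample. Both groups thus share the floxed alleles, adenoviral infection and GFP, and Cre itself cannot be told apart from loss of Dicer, which processes microRNAs. The samples are numbered 1 to 4 in each group as biological replicates, without naming animals or cultures, so a p-value reflects only how these samples vary, which may be technical.

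Secretory cells fold new proteins in the endoplasmic reticulum. When unfolded proteins build up there, the membrane sensors Ern1 (IRE1), Atf6 and Eif2ak3 (PERK) become active. Ern1 splices Xbp1 mRNA and Atf6 is cut to a transcription factor, and both raise chaperones and degradation genes, in part through promoter elements called ERSE and ERSE-II. Eif2ak3, and Eif2ak4 (GCN2) when amino acids are short, phosphorylate the initiation factor eIF2. This slows translation in general but favours translation of Atf4, a transcription factor that binds elements called CARE in genes for amino acid synthesis and stress. The Atf4 arm alone thus marks the integrated stress response, and chaperones mark the unfolded protein response. Fibroblast-like cells secrete collagen, which passes through this folding machinery.

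A value below is the deposited linear signal of a probe set unless it is called a log2 difference, which is knockout minus control on the scale log2(signal + 73.1). The 2% trimmed mean was 1500 on every array, the median signal was 321.1 to 418.9, and signals of different probe sets cannot be set against each other. Of 8 preadipocyte markers, 6 are on the array, all bright enough to test, and they summed to 107382 to 188146 in knockouts and 132518 to 208072 in controls. Of the markers of other cells on the array, 4 of 6 for macrophages and leukocytes (Cd68, Csf1r, Adgre1, Lyz2), 2 of 4 for endothelium (Kdr, Tek), 3 of 4 for skeletal muscle (Des, Ckm, Myod1), 1 of 4 for epithelium (Epcam) and 1 of 3 for adipocytes (Fabp4) were bright enough to test. Among those too dim were Ptprc, Itgam, Pecam1, Cdh5, Myog, Adipoq and Lep. The targeted transcript did not separate the groups. The brighter Dicer1 probe set read 1158, 1190.4, 1404 and 1110.1 on knockout arrays 1 to 4, against 1153, 1141, 2114 and 1190.3 on control arrays 1 to 4 (log2 difference -0.15, SE 0.20), and the dimmer one had a log2 difference of -0.26 (SE 0.27). How these probe sets lie to the floxed segment was not analysed here, so they do not check the deletion.

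The promoters of the Atf4 arm and the chaperones held different elements of those named above. RefSeq promoter windows of 300 bases (250 before to 50 after the annotated start, build GRCm38.p6) were on hand for 38 of the 42 members. On either strand, ERSE (CCAAT, then 9 bases of any kind, then CCACG) was found in 7 of 13 chaperones, in 1 of 4 degradation genes (Syvn1) and in 0 of 17 Atf4 arm genes, against 0.137% of all 27025 genes in the table. CARE (TGATGNAAN) was found in 5 of 17 Atf4 arm genes, in 1 of 4 degradation genes (Herpud1) and in 0 of 13 chaperones, against 4.5% of all genes. ERSE-II (ATTGG, then any base, then CCACG) was found in Dnajb11 and Herpud1, against 0.0444% of all genes, and the site TGACGTGG, bound by Xbp1, in 0 members, against 0.714%. Herpud1 (CARE and ERSE-II) and Hsp90b1 (ERSE at 2 places) held 2 matches each, which did not overlap. A match is a description of letters, not a shown binding site.

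Of the 6 CARE matches, 5 are shown, because most of these genes are among those that differed between replicate numbers below; that of Trib3 lies 14 to 22 bases into the transcript. Capitals mark the match, with 12 bases on either side, 5′ to 3′ on the gene's strand; a match that reads from the opposite strand appears as its reverse complement.
Asns (chr6:7693212-7693244, minus strand): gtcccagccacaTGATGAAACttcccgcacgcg
Chac1 (chr2:119351036-119351068, plus strand): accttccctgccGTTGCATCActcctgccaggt
Nupr1 (chr7:126625561-126625593, minus strand): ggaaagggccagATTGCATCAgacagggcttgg
Vldlr (chr19:27216807-27216839, plus strand): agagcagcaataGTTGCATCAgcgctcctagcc
Herpud1 (chr8:94386304-94386336, plus strand): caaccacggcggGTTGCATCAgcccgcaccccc

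The ERSE matches of 5 chaperones are shown in the same way, and Herpud1's ERSE-II beside them, since Herpud1 is the member that holds both kinds of element.
Hspa5 (chr2:34772013-34772055, plus strand): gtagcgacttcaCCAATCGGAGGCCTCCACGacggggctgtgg
Hsp90b1 (chr10:86705521-86705563, minus strand): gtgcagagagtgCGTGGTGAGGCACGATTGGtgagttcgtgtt
Calr (chr8:84847063-84847105, minus strand): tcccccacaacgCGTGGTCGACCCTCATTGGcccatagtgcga
Pdia6 (chr12:17266479-17266521, plus strand): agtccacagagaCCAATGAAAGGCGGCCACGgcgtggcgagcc
Dnajc3 (chr14:118937815-118937857, plus strand): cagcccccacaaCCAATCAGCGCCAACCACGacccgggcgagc
Herpud1 (chr8:94386365-94386399, plus strand): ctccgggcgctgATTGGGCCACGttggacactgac
The Hspa5 element lies 65 to 47 bases before the start and that of Asns 23 to 15 bases before it.

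Set against control cells, knockout cells showed no member of either response past the threshold. Of the 42 genes, 19 had a log2 difference above 0 and 23 below 0, with a median of -0.008, beside -0.002 over all 13259 genes tested. In limma, with p-values adjusted by Benjamini-Hochberg over the 27026 tested probe sets, 0 members were called higher and 0 lower (background 0% of genes), and the smallest adjusted p of a member was 0.999. Nor were any of the 94 member probe sets called (0, against a background of 0.0037% of probe sets). At an unadjusted p under 0.05, 0 members were higher (background 1.99%) and 1, Ppp1r15a, was lower (background 1.94%). In 0 members did all knockout arrays lie on one side of all control arrays (background 2.52%). With the replicate number as a block, 0 members were called, with a smallest adjusted p of 0.154 (background 0.0754%), and at an unadjusted p under 0.05 there were 3 members higher and 5 lower (backgrounds 4.96% and 5.35%). The counts without the block lie near their backgrounds, and those with it are above theirs by a few genes. With it, Nupr1, Sdf2l1 and Herpud1 were higher and Ppp1r15a, Vldlr, Atf5, Shmt2 and Xbp1 lower. The Atf4 arm held 1 of the higher and 4 of the lower, and the chaperones 1 and 0. The blocked SE was 0.08 for Atf5, Shmt2 and Xbp1 and 0.13 for Herpud1 (limma adjusted p = 0.447, 0.473, 0.483 and 0.53). All 4 same-numbered pairs lay above 0 in 4 members (Nupr1, Psat1, Calr and Sdf2l1). They lay below 0 in 6 (Ppp1r15a, Atf5, Shmt2, Vldlr, Xbp1 and Hspa5). A single sign in all 4 pairs was thus seen in 23.8% of members, beside 18.1% of all genes. This was read from the brightest probe set. Some other tested probe sets of Psat1, Calr, Shmt2, Vldlr, Xbp1 and Hspa5 had pairs on both sides of 0. In bulk RNA, fewer cells that express a gene and less of its RNA per cell cannot be told apart.

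The intervals of single genes differed in width. For Hspa5 (BiP), the central chaperone of the endoplasmic reticulum and the standard gauge of the unfolded protein response, the log2 difference was -0.09 (95% interval -0.32 to 0.13), and for Calr, calreticulin, 0.13 (95% interval -0.19 to 0.44). For Ddit3 (CHOP), the stress-induced factor linked to cell death, it was -0.11 (95% interval -0.84 to 0.63). The interval was thus wider for Ddit3 in the fit without the block. With the replicate number as a block the SE was 0.09 for Ddit3, 0.07 for Hspa5 and 0.07 for Calr.

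**Figure D1:**
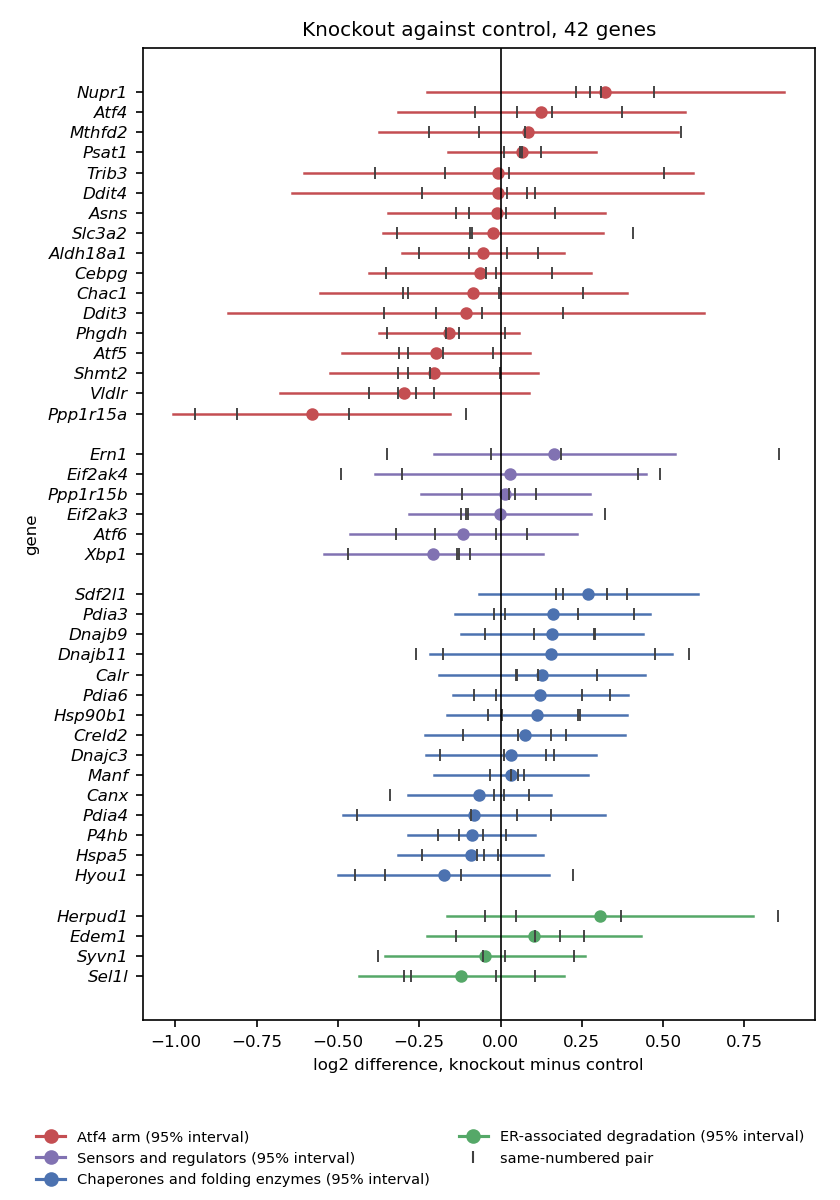
Log2 difference, knockout minus control, of each of the 42 genes (rows, by arm), with points for the mean over 4 arrays a group, bars for the 95% interval of the unpaired fit and ticks for the 4 same-numbered pairs. Of the bars, that of Ppp1r15a alone lies wholly below 0 (-1.01 to -0.16), and none lies wholly above 0.

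In the Atf4 arm, the transcription factors come first. Atf4 read 16819.9, 26556, 21147 and 24615 on knockout arrays 1 to 4, against 12973, 23779.8, 20420.2 and 25998 on control arrays 1 to 4. Its groups overlapped, with the array numbered 1 lowest in both, and the log2 difference was 0.13 (SE 0.20); another bright Atf4 probe set gave -0.02 (SE 0.16). Ddit3 read 7647, 15342, 15188 and 18461 on knockout arrays 1 to 4, against 6689.9, 19677, 17436 and 19224 on control arrays 1 to 4. Here too the number 1 array was lowest in both groups, and the 6 other arrays read 15188 or more, and the log2 difference was -0.11 (SE 0.34). Atf5, a related factor of the stress response, read 16643 ± 2658 in knockouts and 19049 ± 2420.0 in controls (SD, n = 4 each), a log2 difference of -0.20 (SE 0.13) that was below 0 in 4 of 4 pairs. Cebpg, a partner of Atf4 in dimers, had a log2 difference of -0.06 (SE 0.16), but its other probe sets gave 0.24 (SE 0.14) and -0.10 (SE 0.25). Nupr1, a small stress-induced chromatin protein, read 8862, 15034, 17089 and 19700.0 on knockout arrays 1 to 4, against 7528, 12110.0, 12311 and 16260.1 on control arrays 1 to 4. Each knockout array was above its same-numbered control, by 0.23, 0.31, 0.47 and 0.28 on the log2 scale in pairs 1 to 4, while the groups overlapped. Its log2 difference of 0.32 had an SE of 0.25 without the block and 0.07 with it (limma adjusted p = 0.999 without the block, adjusted p = 0.16 with it).

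Among the feedback genes, Ppp1r15a (GADD34), the stress-induced subunit that directs a phosphatase to eIF2 and so ends the response, had the largest difference of the 42. It read 3174, 2164, 3078 and 2183 on knockout arrays 1 to 4, against 3424, 3017, 5457 and 4259 on control arrays 1 to 4. The lowest control array lay below the highest knockout array, so the groups overlapped, and knockout was below control in 4 of 4 pairs, with log2 differences of -0.11, -0.47, -0.81 and -0.94 in pairs 1 to 4. The overall log2 difference was -0.58 with an SE of 0.20 (limma adjusted p = 0.999, and adjusted p = 0.154 with the block). It passed the threshold in 1 alternative, the blocked fit without pair 1 (log2 difference -0.74, limma adjusted p = 0.0407), with adjusted p of 0.408, 0.478 and 0.456 in the blocked fits without pairs 2, 3 and 4. Trib3, a pseudokinase that restrains Atf4, read 2147, 3219, 2958 and 3399 on knockout arrays 1 to 4, against 1495, 3633, 2906 and 4463 on control arrays 1 to 4. The log2 difference was -0.01 (SE 0.28), and the pairs lay on both sides of 0. Chac1, which degrades glutathione, and Ddit4 (REDD1), which inhibits the growth kinase mTORC1, gave -0.08 (SE 0.22) and -0.01 (SE 0.29) on the log2 scale.

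The amino acid genes of the arm differed little. Asns, asparagine synthetase, read 8708, 11625, 11296 and 10892 on knockout arrays 1 to 4, against 7741, 11480.2, 12088 and 11992 on control arrays 1 to 4, a log2 difference of -0.01 (SE 0.15). For the enzymes of serine synthesis the log2 difference was -0.16 (SE 0.10) in Phgdh and 0.07 (SE 0.10) in Psat1. Phgdh read 30668, 33659.5, 27308 and 30767 on knockout arrays 1 to 4, against 34479, 36781, 34837 and 30503 on control arrays 1 to 4, so its groups overlapped. Of its 4 probe sets all lay below 0, between -0.24 and -0.08, and 1 of them had an unadjusted p under 0.05. The mitochondrial folate enzymes Shmt2 and Mthfd2 gave -0.21 (SE 0.15) and 0.09 (SE 0.21), and Aldh18a1, the first enzyme of proline synthesis, -0.05 (SE 0.11). The amino acid transporter subunit Slc3a2 gave -0.02 (SE 0.16). Vldlr, a lipoprotein receptor that Atf4 induces under stress, read 6678, 5941, 7804 and 4477 on knockout arrays 1 to 4, against 7706, 7412, 9362 and 5952 on control arrays 1 to 4. Knockout was below control in 4 of 4 pairs, and its 6 tested probe sets all lay below 0 (log2 difference -0.30 with an SE of 0.18 for the brightest, limma adjusted p = 0.235 with the block).

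The sensors and regulators did not separate the groups. Xbp1 read 9587, 14071, 9892 and 10026 on knockout arrays 1 to 4, against 10530.5, 15018, 10813 and 13923 on control arrays 1 to 4. Knockout was below control in 4 of 4 pairs, the groups overlapped, and the log2 difference was -0.21 (SE 0.15). Spliced and unspliced Xbp1 mRNA were not told apart here. Of its 4 probe sets, 2 lay below 0 and 2 above (0.04 and 0.01). Ern1 read 3434, 2414, 2741 and 2366 on knockout arrays 1 to 4, against 1864, 3095, 2403 and 2417 on control arrays 1 to 4, with the highest array in the knockout and the lowest in the control, both numbered 1, and a log2 difference of 0.17 (SE 0.17). Atf6 read 1867, 1504, 1989 and 1480.5 on knockout arrays 1 to 4, against 1762, 1519, 2297 and 1869 on control arrays 1 to 4, a log2 difference of -0.11 (SE 0.16). The eIF2 kinases gave -0.0016 (SE 0.13) for Eif2ak3 and 0.03 (SE 0.19) for Eif2ak4 on the same scale. Ppp1r15b, the constitutive partner of the same phosphatase as Ppp1r15a, gave 0.01 (SE 0.12).

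The chaperones were narrowly spread around 0, from -0.18 to 0.27 on the log2 scale. Hspa5 read 39337, 40402, 43442 and 44928 on knockout arrays 1 to 4, against 40734, 42454, 43667 and 53090.0 on control arrays 1 to 4. Its groups overlapped, and the difference was -0.09 (SE 0.10), with the other probe sets at 0.05 (SE 0.12) and 0.03 (SE 0.12). Sdf2l1, a partner of the Hspa5 system, had the largest difference of the chaperones and read 3553, 3672, 2949.5 and 4506 on knockout arrays 1 to 4, against 2696, 3257, 2571 and 3572 on control arrays 1 to 4. Knockout was above control in 4 of 4 pairs and the groups overlapped (log2 difference 0.27 with an SE of 0.15, limma adjusted p = 0.39 with the block). Hyou1, a large Hsp70-like chaperone, read 4221, 3183, 3612 and 3491 on knockout arrays 1 to 4, against 4595, 4368, 3084 and 4488 on control arrays 1 to 4, a log2 difference of -0.18 (SE 0.15). Dnajb9, a J-domain protein that restrains Ern1, read 6374, 7372, 6125 and 5795 on knockout arrays 1 to 4, against 6590.0, 6022, 5705 and 4729 on control arrays 1 to 4, a log2 difference of 0.16 (SE 0.13). The remaining chaperones had groups that overlapped too. They gave 0.11 for Hsp90b1 (GRP94), 0.13 and -0.07 for the lectins Calr and Canx, and 0.15 and 0.03 for the J-domain proteins Dnajb11 and Dnajc3. The disulfide isomerases Pdia3, Pdia4, Pdia6 and P4hb gave 0.16, -0.08, 0.12 and -0.09. Creld2 and Manf, secreted or retained proteins that stress induces, gave 0.07 and 0.03.

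Of the degradation genes, Herpud1, a scaffold of the membrane complex that exports misfolded proteins, read 3777, 4526, 3702 and 5126 on knockout arrays 1 to 4, against 2056, 4685, 3582 and 3949 on control arrays 1 to 4. Control array 1 was the lowest of the 8, and without it the log2 difference was 0.0675, against 0.31 (SE 0.22) with all arrays. A second Herpud1 probe set gave -0.01 (SE 0.24). Sel1l and Syvn1, the adaptor and the ubiquitin ligase of that complex, gave -0.12 (SE 0.15) and -0.05 (SE 0.14) on the log2 scale, and Edem1, which sends misfolded glycoproteins to degradation, 0.10 (SE 0.15). Sel1l read 5438, 4996, 5530.0 and 4080.5 on knockout arrays 1 to 4, against 5491, 4637, 6817 and 4955 on control arrays 1 to 4. Edem1 read 3814, 4522, 4929 and 4957 on knockout arrays 1 to 4, against 3348, 4196, 5423 and 4136 on control arrays 1 to 4. In both genes the groups overlapped.

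The Atf4 arm and the chaperones were then set side by side. In the Atf4 arm 4 of 17 genes had a log2 difference above 0 and 13 below, with a median of -0.05; among chaperones 10 of 15 were above 0 and 5 below, with a median of 0.07. Over all genes tested 49.6% were above 0. The difference of the medians, Atf4 arm minus chaperones, was -0.13. It was 0.14, -0.05, -0.26 and -0.19 in pairs 1 to 4, so that 3 of 4 pairs lay below 0 and pair 1 above. Leaving out single arrays or pairs moved it between -0.22 and -0.02, and it was closest to 0 without control array 2. The median of the Atf4 arm turned above 0 without control array 2 (0.0236), control array 4 (0.0136) or knockout array 1 (0.0203). Members were chosen with earlier results known and share arrays, so no p is given for this difference. It was smaller than the SD of 0.18 over the pairs, which is the spread of single pairs and not the error of the difference. The sensors had a median of 0.01 and the degradation genes one of 0.03.

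**Figure D2:**
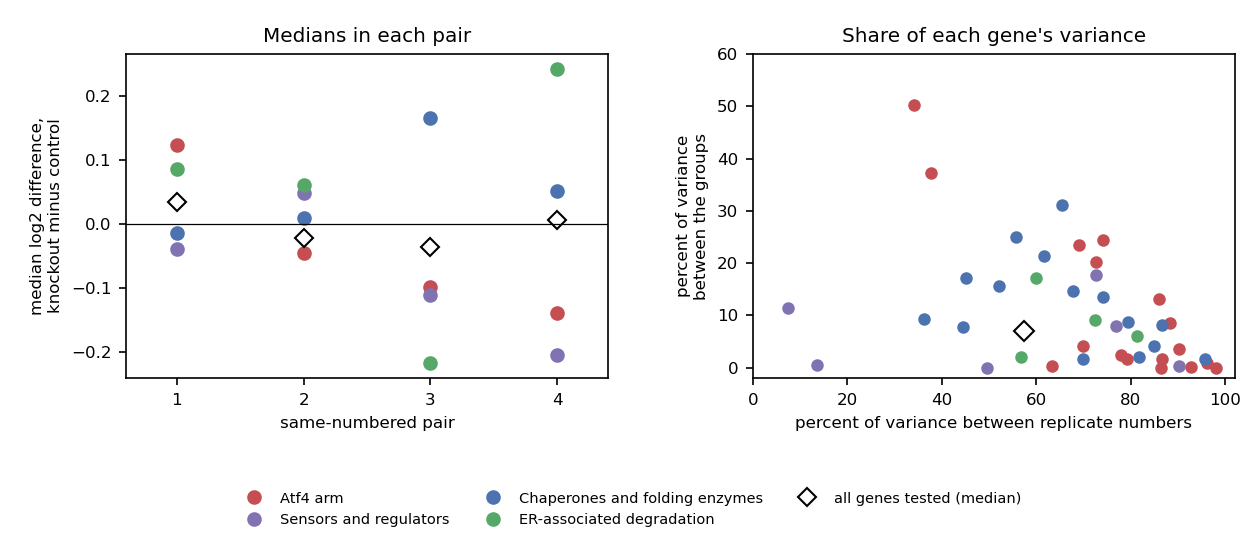
Left, the median log2 difference, knockout minus control, of each arm (filled points) and of all genes tested (diamonds) in the 4 same-numbered pairs. The Atf4 arm lay at 0.12 in pair 1 and at -0.14 in pair 4, and the chaperones between -0.01 and 0.17. Right, the percent of each gene's variance over 8 arrays that lay between the groups against that between replicate numbers, with the diamond at the medians of all genes (57.4% and 7.08%).

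A difference within the Atf4 arm lay between replicate numbers and held in both groups. Ddit3, Ddit4, Trib3, Nupr1, Chac1, Atf4, Mthfd2 and Asns were all lowest on the arrays numbered 1, in knockout and control alike. An F test of the replicate number, taken from the fit that also holds the group and chosen after the values were seen, was adjusted in the same way. It called 9 of 17 Atf4 arm genes, 2 of 15 chaperones, 1 of 6 sensors and 0 of 4 degradation genes, against a background of 9.37% of genes. That background was 3.67% with no filter on dim probe sets and 15.2% among the upper 40% of probe sets. With these filters the test called 6 and 11 Atf4 arm genes. By probe set, with the filter used elsewhere, the test called 15 of 41 of the Atf4 arm and 4 of 29 of the chaperones, against 8.3% of all probe sets. A dimmer second Ddit3 probe set was not among them.

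The 9 Atf4 arm genes were Ddit3 (limma adjusted p = 0.000357), Ddit4 (0.000537), Nupr1 (0.000603), Atf4 (0.00522), Vldlr (0.0123), Trib3 (0.0159), Asns (0.0316), Chac1 (0.0335) and Mthfd2 (0.0404). Ddit4 read 5400.4, 10418, 7736 and 11539 on knockout arrays 1 to 4, against 5009, 10276, 7312 and 13651 on control arrays 1 to 4. The 4 numbers stood in the same order in both groups, and 97.9% of its variance lay between numbers, against 0.0077% between groups. For Ddit3 these shares were 96% and 0.86%, and over all genes tested the medians were 57.4% and 7.08%. Chac1 read 1989, 2941, 2414 and 2605 on knockout arrays 1 to 4, against 1658, 3601, 2422 and 3223 on control arrays 1 to 4. Mthfd2 read 4665, 6672, 4955 and 6107 on knockout arrays 1 to 4, against 3152, 6331, 5790.0 and 6395 on control arrays 1 to 4. In both, the array numbered 1 was the lowest of its group and the one numbered 2 was the highest of the knockouts. Vldlr went another way, with the number 4 array lowest and the number 3 array highest in both groups.

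**Figure D3:**
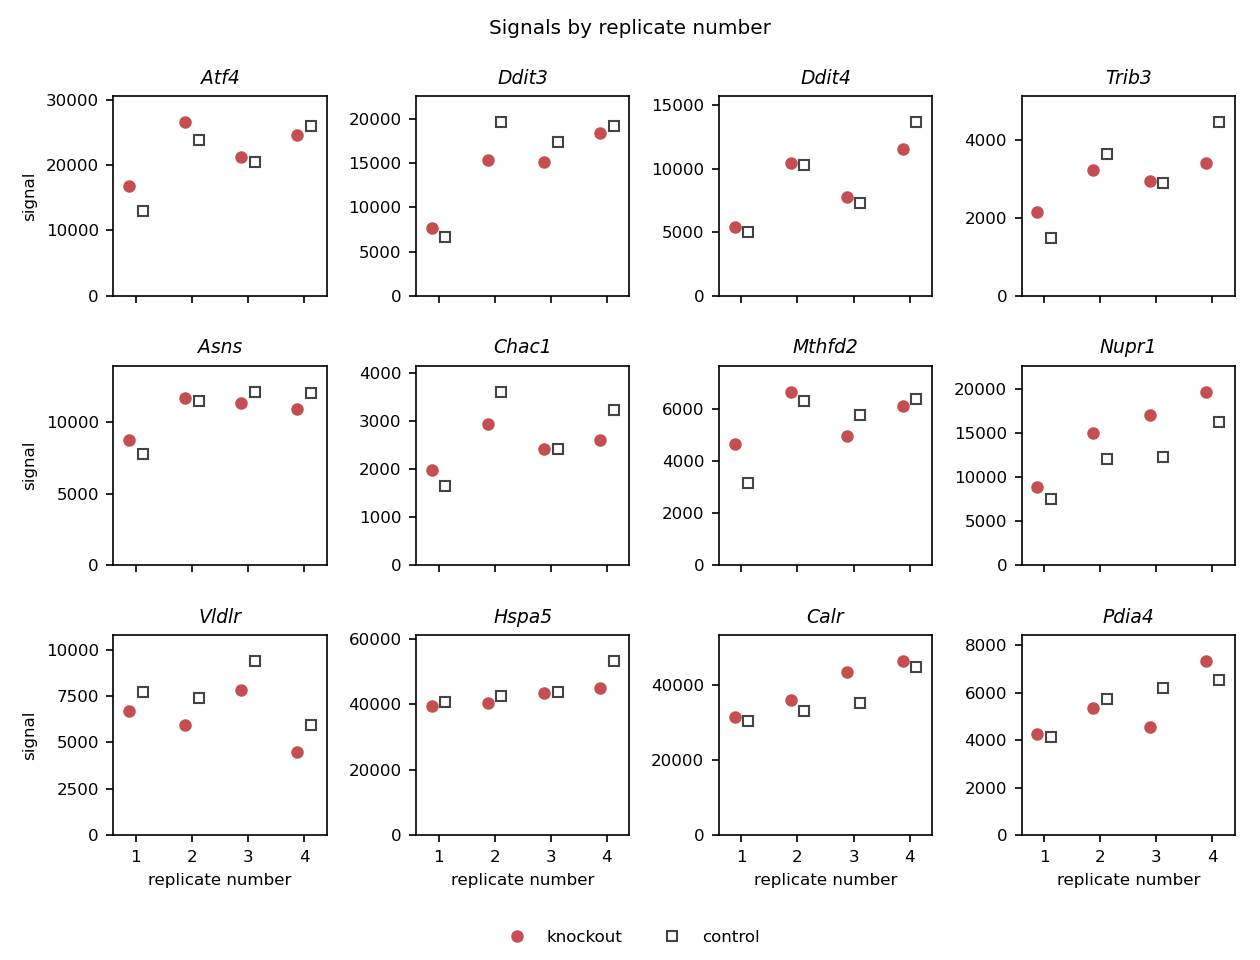
Signal by replicate number for 12 genes, with filled circles for knockout and open squares for control arrays. Ddit3 read 7647 and 6690 on the arrays numbered 1 and 15188 or more on the others. Hspa5 stayed between 39337 and 53090.0 on all 8 arrays, but it too was lowest on the arrays numbered 1 in both groups. Of the variance of Hspa5, 74.2% lay between numbers, beside a median of 57.4% over all genes. The replicate number test did not call it (limma adjusted p = 0.235).

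Over the whole Atf4 arm, the median share of variance between numbers was 79.2%, beside 67.8% in the chaperones and 57.4% over all genes tested. The array numbered 1 was lowest in both groups for 10 of 17 Atf4 arm genes and 4 of 15 chaperones, against 13.9% of all genes. The aminoacyl-tRNA synthetases, which are not members but are Atf4 targets in part, had a median share of 81.4%. Of these, 7 of 11 were lowest on the arrays numbered 1 in both groups, so the pattern was not particular to the 17 genes of the Atf4 arm. Of the other lists named below, 7 of 20 amino acid transporters and other Atf4 targets were so. So were 3 of 10 other folding enzymes and 2 of 6 mitochondrial chaperones and proteases. The share was 0% to 18.2% in each remaining list. Among chaperones the array numbered 4 was the highest in both groups for 8 of 15, against 13.7% of all genes and 3 of 17 Atf4 arm genes. It was also the highest in both groups for 5 of 11 synthetases and 4 of 10 other folding enzymes, and for 0% to 20% of each remaining list. The chaperones called were Calr (limma adjusted p = 0.0225) and Pdia4 (0.0466), and the regulator was Xbp1 (0.0432). Calr read 31349, 35831, 43347 and 46193 on knockout arrays 1 to 4, against 30365, 33063, 35251 and 44597 on control arrays 1 to 4. Pdia4 read 4264, 5365, 4541 and 7307 on knockout arrays 1 to 4, against 4117, 5714, 6193 and 6549 on control arrays 1 to 4. Both were lowest on the arrays numbered 1 and highest on those numbered 4 in each group. Of the 6 members with a CARE match, 5 were called, all of them among the 9 Atf4 arm genes above, and of the 10 with an ERSE or ERSE-II match 1 was (background 9.37% of genes). Of the 5, Vldlr alone was called without the arrays numbered 1. In the Atf4 arm as a whole 9 of 17 were called, and of these Ddit3, Ddit4, Atf4 and Mthfd2 held no CARE match. A link between CARE and the replicate number was not tested.

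The calls by replicate number depended on the arrays and on the variance model. Without the arrays numbered 1, 2 of 17 Atf4 arm genes, Ddit4 and Vldlr, were called (background 3.23%), and without those numbered 4, 5 were (background 2.56%). Without a mean-variance trend in limma, 0 members were called, as were 0% of all genes, while 9 Atf4 arm genes had an unadjusted p under 0.05 (background 16.6%).

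Other measures moved with the replicate number as well, and their part in this pattern was not tested. The summed preadipocyte markers read 188146 and 208072 on knockout and control arrays numbered 1, and 107382 to 185586 on the others. Dlk1, Pdgfra and Pdgfrb were highest on the arrays numbered 1 in both groups, while Col1a1, Cd34 and Thy1 were not. Dlk1, a marker that preadipocytes lose as they differentiate, read 60140.3, 25168, 24503 and 15604 on knockout arrays 1 to 4, against 72944, 44809, 50687 and 26167 on control arrays 1 to 4. It was below control in 4 of 4 pairs, with a log2 difference of -0.72 and an SE of 0.37 (limma adjusted p = 0.999, and adjusted p = 0.0436 with the block). The adipocyte markers, of which 3 of 5 are on the array, summed to 2018 and 2221 on knockout and control arrays numbered 1, and to 3245 to 6368 on the others. Of them Adipoq and Lep were too dim to test, and Fabp4 read 1877, 5961, 5952 and 6206 on knockout arrays 1 to 4, against 2079.7, 3941, 3057 and 3493 on control arrays 1 to 4. The skeletal muscle markers summed to 1994 and 1480.4 on knockout and control arrays numbered 1 and to 2202 to 3143 on the others, and the endothelial markers to 1539.6 and 1542 against 1631 to 2299.8. Both sums, dim markers included, were lowest on the arrays numbered 1 in each group, and the leukocyte and epithelial sums were not. Of the tested markers in these sums, Des and Tek were lowest there in both groups. Ckm, Myod1 and Kdr were not, so the markers of a cell type did not move together. The 18S ribosomal RNA 5′ probe set split the odd from the even numbers instead, at 9525 to 14007 on odd and 42618 to 43029.9 on even knockout arrays, and at 5906 to 11356 on odd and 30584 to 36375 on even control arrays. The 3′ to 5′ ratio of actin was 1.78 to 2.01 in knockouts and 1.66 to 2.06 in controls.

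**Figure D4:**
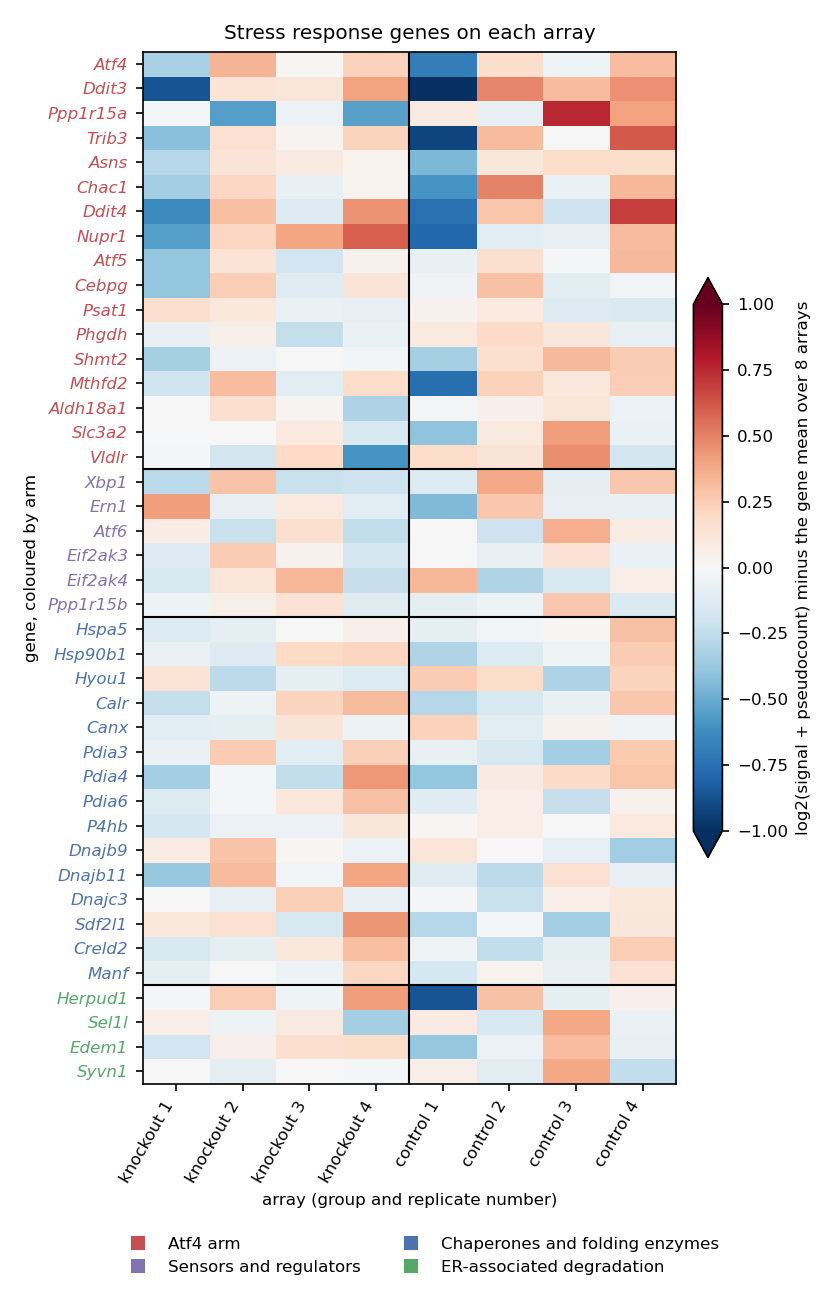
Each cell is a gene's log2(signal + 73.1) on an array minus the gene's mean over 8 arrays; genes are rows, grouped by arm, and arrays are columns, knockout left of control. The columns numbered 1 are blue over most of the upper Atf4 arm in both groups, though not for Ppp1r15a. The colour scale ends at -1 and 1, which Ddit3 on control array 1 exceeds.

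Other genes of the pathways showed no call between knockout and control either. Of 11 aminoacyl-tRNA synthetases, which charge tRNAs with amino acids and are Atf4 targets in part, 5 had a log2 difference above 0, with Lars at -0.19 (SE 0.11) and Nars at -0.17 (SE 0.10). Of 20 amino acid transporters and other Atf4 targets 9 were above 0, with Shmt1 at -0.34 (SE 0.16) and Vegfa at -0.30 (SE 0.20). The 9 genes of eIF2 and its exchange factor eIF2B had 3 above 0, with Eif2b4 at -0.20 (SE 0.17) and Eif2s2 at 0.10 (SE 0.09). The replicate number test called 2 of the synthetases, 3 of the targets and 0 of the eIF2 genes, against 9.37% of all genes.

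On the folding side, 2 of 10 other folding enzymes were above 0. Fkbp2, a prolyl isomerase, read 9299.8, 8700.3, 8446 and 9322 on knockout arrays 1 to 4, against 10168, 10315, 9757 and 10757 on control arrays 1 to 4, so that all knockout arrays lay below all controls, and its log2 difference was -0.20 with an SE of 0.09 (limma adjusted p = 0.999). Erp29, a folding factor, had -0.18 (SE 0.11). Of 11 other degradation genes 6 were above 0. Ube2g2, a ubiquitin-conjugating enzyme of this degradation, read 2862, 3604, 3204 and 3708 on knockout arrays 1 to 4, against 2508, 2860.1, 2369 and 2614 on control arrays 1 to 4. All knockout arrays lay above all controls, and the log2 difference came to 0.36 (SE 0.13), at a limma adjusted p = 0.999 (adjusted p = 0.251 with the block). Groups that did not overlap were thus seen in 1 of 10 other folding enzymes and 1 of 11 other degradation genes. They were seen in 0 genes of each list beside these, and in 2.52% of all genes. Edem3 had 0.14 (SE 0.13). Among 7 other stress transducers 6 were above 0, with the protease Mbtps1, which cuts Atf6, at -0.18 (SE 0.11) and Creb3l2 at 0.12 (SE 0.14).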

How the data were processed

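Array intensity was deposited by the authors as 1 linear signal per probe set, made with GCOS 1.3 and MAS5 per the submitters' processing notes; the values show a common scaling per array, with no other step recorded in the sources used. The analysis used log2(signal + 73.1), with 73.1 the 20th percentile over all arrays, which understates differences of dim probe sets. Of 45101 probe sets, 64 controls were left out and the upper 60% by mean (27026) were tested with limma 3.58.1 in R 4.3.3 (lmFit and trended eBayes, two-sided tests, Benjamini-Hochberg over all of them, threshold 0.05). Symbols came from the platform's annotation table (34945 with 1 symbol, 932 with several, 9160 with none), and only those with 1 symbol could stand for a gene. Probe sets with several symbols or none stayed in the fit, its adjustment and the shares over all probe sets. Promoter windows came from RefSeq (GRCm38.p6).

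The numbers of the labels were taken to pair the samples, since deviations from the group means correlated at 0.341, 0.189, 0.199 and 0.372 between same-numbered arrays, and at -0.347 to 0.149 otherwise. The reported fit has no block. Blocked values are given for the members with a blocked unadjusted p under 0.05 and for a few other genes. The replicate number test was taken from the blocked fit. Members and lists were chosen with earlier results of these data known. The 15 members given with every array value were Atf4, Ddit3, Xbp1, Hspa5 and Herpud1, and the 3 of smallest unadjusted p in each arm; of each other list the 2 of smallest p are named. Further members were added for the replicate number test after values were seen. The alternatives changed the pseudocount, the filter, the normalization, the trend, array weights, the block and the arrays left out. The fits were tested on simulated data. Figures were drawn with matplotlib 3.10.9.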

Additional observations from a re-analysis of the deposited data

Results flagged for a closer look

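In each gene and group the array farthest from the others was compared with the range of its 4 arrays, which made 84 groups, of which 5 had a gap past Dixon's 95% critical share of the range; chance gives about 1 in 20. Control array 1 was the lowest for Ddit3, at 6690 against 17436 to 19677 on the other control arrays. It was also the lowest for Asns, at 7741 against 11480.2 to 12088, and for Mthfd2, at 3152 against 5790.0 to 6395. Knockout array 1 was the lowest of the knockouts for the same 3 genes. Knockout array 2 was the highest for Xbp1, at 14071 against 9587 to 10026 on the other knockout arrays. Control array 3 was the lowest for Hyou1, at 3084 against 4368 to 4595 on the other controls.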

How the results depend on the processing

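Over 22 alternatives, 0 members were called higher, and 1 was called lower in 1 of them, Ppp1r15a in the fit with the replicate block and without pair 1 (log2 difference -0.74, limma adjusted p = 0.0407), so leaving out arrays or pairs moved the count called lower between 0 and 1. The replicate block changed no other call. At an unadjusted p under 0.05 the fit with the replicate block gave 3 members higher and 5 lower and the fit with odd or even number as a block 1 and 3, against 0 and 1 without a block; leaving out single arrays or pairs gave 0 to 4 higher and 1 to 5 lower. Leaving out single arrays or pairs moved the log2 difference of Atf4 between -0.084 and 0.25, of Ddit3 between -0.48 and 0.16, of Ern1 between -0.065 and 0.34 and of Edem1 between -0.0057 and 0.22. Direction thus changed for Atf4 and Edem1 without control array 1 (-0.084 and -0.0057), for Ern1 without pair 1 (-0.065), and for Ddit3 without control array 2 (0.04), control array 4 (0.03) or knockout array 1 (0.16). The median of the sensors ranged between -0.105 and 0.056 and that of the degradation genes between -0.022 and 0.147. The other 11 of the 15 genes chosen by the stated rule kept their direction in all 22 alternatives, as did the difference between Atf4 arm and chaperones in 23, one of them the median over a gene's probe sets.

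The replicate number test and its alternatives, and those of the unadjusted counts, were chosen after seeing the data. That test called 0 members without a mean-variance trend (0% of all genes), and with median centring 5 in the Atf4 arm, 0 chaperones and 0 sensors (3.54% of all genes). With no filter on dim probe sets it called 6 in the Atf4 arm, 0 chaperones and 0 sensors (3.67% of all genes), against 9.37% of all genes in the blocked fit with the main settings. With the upper 40% of probe sets it called 11 in the Atf4 arm and 15 members in all (15.2% of all genes). With a smaller pseudocount, quantile normalization or array weights it called 1 chaperone. Without single pairs it called 2 to 8 in the Atf4 arm, 0 to 3 chaperones and 0 to 1 sensors. The cause of these changes was not tested. The precision of every value is limited by the 4 arrays a group, and the 9 member probe sets too dim to test were not read.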

Other observations

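Beside the stress pathways, 3 neighbouring lists were read, and by limma 0 of their genes were called between knockout and control (0 at an unadjusted p under 0.05). Of 11 genes of translocation into the endoplasmic reticulum 8 were above 0, with Ssr2, a translocon subunit, at -0.14 (SE 0.11) and Spcs2 at -0.11 (SE 0.13). Of 10 cytosolic heat shock proteins 6 were above 0, with the Hsp70 chaperone Hspa1b at 0.23 (SE 0.11) and Hspa4 at 0.20 (SE 0.11). Of 6 mitochondrial chaperones and proteases 0 were above 0, with the mitochondrial Hsp70 Hspa9 at -0.20 (SE 0.11) and Hspd1 at -0.11 (SE 0.10).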
